A study of Mus musculus with 4 samples.

Results

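The genes described here encode enzymes of glycolysis and of lactate handling, measured in mouse dWAT (dermal white adipose tissue, the fat layer below the dermis that surrounds the lower HFs). They are 10 of the 22913 genes for which FPKM (fragments counted for a gene, relative to gene length and to library size) was deposited, and were taken by symbol: Hk1, Hk2, Pfkl, Pfkm, Pfkp, Pgk1, Pkm, Ldha, Ldhb and Slc16a1. All 10 were matched and all 10 were above 0 in each library. The study sequenced microdissected dWAT of C57BL/6 mice of 2 ages in 2 phases of the hair cycle, with 1 library per group. OTD is old dWAT in telogen, the resting phase, and YTD is young dWAT in telogen. OAD and YAD are old and young dWAT in anagen, the growth phase, which depilation had started. The old mice were 18 months and the young mice 2 months old by the study's methods, whereas the age tags have YTD at 18 and OAD at 2 months, so the group names were used. Each library represents tissue of many mice, and no value here has a replicate, a standard deviation or a p-value.

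Glycolysis splits glucose to pyruvate. Hexokinase traps glucose in the cell, phosphofructokinase commits it to the pathway, phosphoglycerate kinase and pyruvate kinase make the ATP, and lactate dehydrogenase converts pyruvate and lactate into each other. Many of these steps have isozymes encoded by separate genes, and skeletal muscle uses a characteristic set of them, among them Hk2, Pfkm and Ldha, while Hk1, Pfkl, Pfkp and Ldhb serve other tissues to a larger extent. White fat uses glycolysis to make glycerol for triglyceride and releases much of the carbon as lactate, which crosses the membrane through monocarboxylate transporters such as the product of Slc16a1.

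Promoter sequence is shown for the phosphofructokinase genes, whose isozymes took different directions between phases, and for Ldha and Pgk1, textbook targets of the hypoxia factor HIF1. Each run below is the 250 bases before the first RefSeq transcript start on GRCm38.p6, read 5′ to 3′ on the strand of the gene. Capitals mark ACGTG, the core of the hypoxia response element, on either strand, so CACGTG counts once on each strand.
Ldha, chr7:46845554-46845803, plus strand: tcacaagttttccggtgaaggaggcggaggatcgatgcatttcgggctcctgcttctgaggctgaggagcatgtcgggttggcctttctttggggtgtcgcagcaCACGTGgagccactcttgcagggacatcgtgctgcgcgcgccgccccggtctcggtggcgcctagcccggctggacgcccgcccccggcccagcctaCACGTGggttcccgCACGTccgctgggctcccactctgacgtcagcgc
Pgk1, chrX:106186850-106187099, plus strand: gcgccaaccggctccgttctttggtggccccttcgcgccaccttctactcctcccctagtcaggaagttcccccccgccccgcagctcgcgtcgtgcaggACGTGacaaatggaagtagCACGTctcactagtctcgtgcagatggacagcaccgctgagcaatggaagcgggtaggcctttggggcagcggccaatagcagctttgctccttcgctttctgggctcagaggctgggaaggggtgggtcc
Pfkm, chr15:98092339-98092588, plus strand: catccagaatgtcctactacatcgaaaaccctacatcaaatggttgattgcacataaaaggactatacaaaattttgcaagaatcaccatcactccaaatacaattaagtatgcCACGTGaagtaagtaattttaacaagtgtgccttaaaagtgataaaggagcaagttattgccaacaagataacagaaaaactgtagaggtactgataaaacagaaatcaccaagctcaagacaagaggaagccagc
Pfkl, chr10:78009808-78010057, minus strand: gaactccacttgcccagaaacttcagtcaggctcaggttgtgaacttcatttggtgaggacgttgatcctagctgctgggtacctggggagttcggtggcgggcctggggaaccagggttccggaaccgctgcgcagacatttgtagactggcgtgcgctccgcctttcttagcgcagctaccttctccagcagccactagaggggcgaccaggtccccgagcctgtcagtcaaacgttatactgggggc
Pfkp, chr13:6648772-6649021, minus strand: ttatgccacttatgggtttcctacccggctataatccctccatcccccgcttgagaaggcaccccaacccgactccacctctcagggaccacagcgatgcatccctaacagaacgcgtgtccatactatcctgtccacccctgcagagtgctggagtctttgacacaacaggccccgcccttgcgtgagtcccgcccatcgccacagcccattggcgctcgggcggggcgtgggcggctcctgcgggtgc
The Ldha window held 5 matches, the Pgk1 window 2 and the Pfkm window 2, the last being both strands of 1 CACGTG. The Pfkl and Pfkp windows held none. Pfkm and Ldha also have later starts, so their counts depend on the start shown. With windows numbered in order of start, window 2 of Pfkm held 1 match. Windows 3 and 4 of Pfkm and window 2 of Ldha held none. Counting all RefSeq starts of the 10 genes, 7 of 16 windows, from 6 of the 10 genes (Hk2, Pfkm, Pgk1, Pkm, Ldha and Slc16a1), held ACGTG, and 16.6% of 32851 mouse promoter windows of this length did. TATAAA was in 0 of the 16 windows and in 12.4% of all, GGGCGG in 6 of the 16 and in 32.7% of all, and the myogenic E-box CAGCTG in 1 of the 16 and in 13% of all. The E-box CACGTG, which holds ACGTG, was in 3 of the 16 and in 6.02% of all, and the MEF2 motif in 0 of the 16 and in 2.92% of all. All motifs were searched on both strands. A match describes these letters only, and the binding of a factor was not measured.

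Values are given first in FPKM, which is per length and so allows levels of different genes to be compared within a library. All 10 deposited feature lengths are multiples of 3, as coding lengths are. A change is the difference of log2(FPKM + 1) between 2 libraries, and a gene is counted as changed where this is at least 1 in size. The pseudocount of 1 understates differences of genes with low FPKM.

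The hexokinase step was carried mainly by Hk2, the insulin-regulated hexokinase of muscle and fat. Hk2 (chr6:82725025-82774454, minus strand) had 38.8 FPKM in OTD and 73.6 in YTD, against 17.9 in OAD and 17.2 in YAD. Both telogen libraries were above both anagen libraries, and YTD stood highest, while OAD and YAD were close to each other. Hk1 (chr10:62268855-62379908, minus strand), the housekeeping hexokinase, had 8.13 FPKM in OTD and 7.76 in YTD, against 5.08 in OAD and 4.21 in YAD. It kept the order of phases with a smaller spread, since its lower telogen value was 1.53 times its higher anagen value, against 2.17 times for Hk2. Hk2 made up 82.7% of the summed FPKM of this pair in OTD and 90.5% in YTD, against 77.9% in OAD and 80.4% in YAD. The 95% Wilson interval of that share ran from 81.2% to 84.1% in OTD and from 89.6% to 91.3% in YTD, so the difference between these libraries is beyond counting error. In the anagen libraries it ran from 75.7% to 79.9% and from 78.2% to 82.4%, which overlap. These intervals rest on a rough estimate of depth and cover counting error only.

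The phosphofructokinase step showed the clearest split between isozymes. Pfkm (chr15:98092589-98132447, plus strand), the muscle subunit, had 472 FPKM in OTD and 794 in YTD, against 126 in OAD and 105 in YAD. Its telogen values were far above its anagen values, 7.57-fold in young and 3.75-fold in old dWAT. Pfkl (chr10:77986947-78009807, minus strand), the liver subunit, had 9.37 FPKM in OTD and 8.74 in YTD, against 12.5 in OAD and 10.9 in YAD. Pfkp (chr13:6579768-6648777, minus strand), the platelet subunit, had 6.74 FPKM in OTD and 4.72 in YTD, against 10.7 in OAD and 8.56 in YAD. For Pfkl and Pfkp both anagen libraries were above both telogen libraries, the reverse of Pfkm. Within a library, where scaling between libraries does not enter, Pfkm held 96.7% of the summed FPKM of the 3 subunit genes in OTD and 98.3% in YTD, against 84.4% in OAD and 84.4% in YAD. Pfkp held 1.38% in OTD (Wilson interval 1.24% to 1.54%) and 0.585% in YTD (0.511% to 0.668%), against 7.18% in OAD (6.65% to 7.75%) and 6.88% in YAD (6.3% to 7.53%). The Pfkm to Pfkl ratio of FPKM was 50.4 in OTD and 90.8 in YTD, against 10.1 in OAD and 9.64 in YAD. The isozyme makeup of this step moved between phases by more than counting error, and the Pfkp share of OTD was also above that of YTD, whereas the anagen libraries overlapped.

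**Figure D1:**
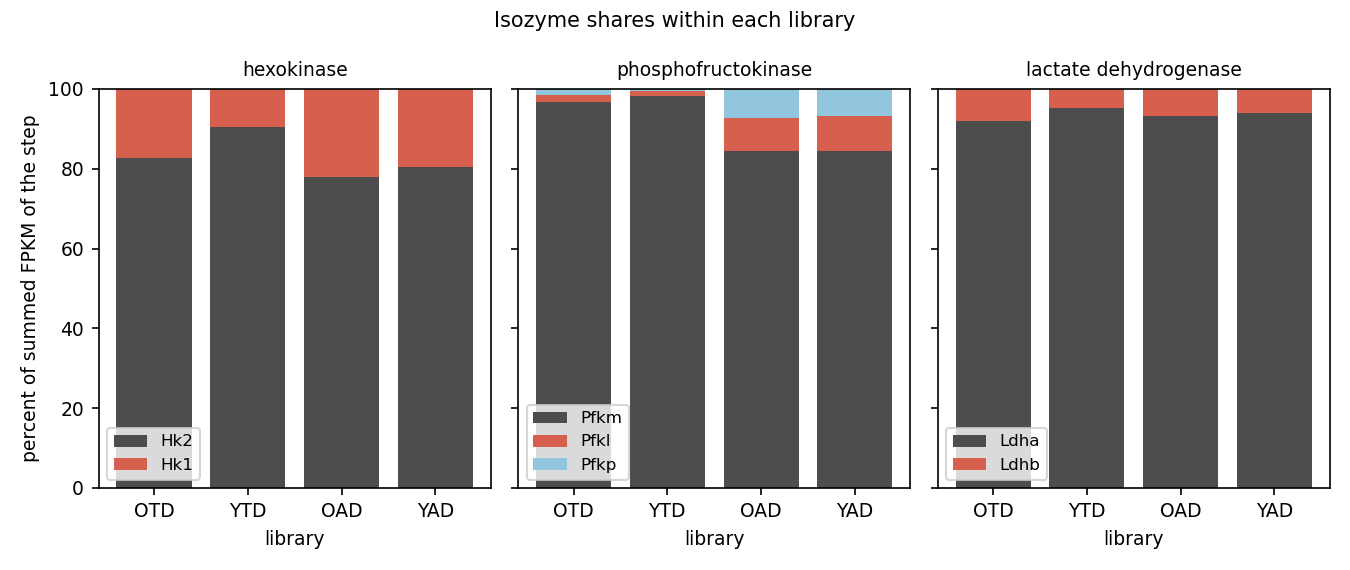
Share of each isozyme gene in the summed FPKM of its step (vertical axis, percent) for hexokinase, phosphofructokinase and lactate dehydrogenase in the 4 libraries, 1 bar per library with no error bar. Pfkm takes 96.7% and 98.3% in OTD and YTD and 84.4% in each anagen library, while Ldha takes more than 91% in each library.

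The ATP-making steps followed the order of libraries seen for Pfkm, Pkm at a higher and Pgk1 at a lower level than Pfkm. Pgk1 (chrX:106187100-106203699, plus strand), phosphoglycerate kinase, had 296 FPKM in OTD and 502 in YTD, against 106 in OAD and 102 in YAD. Pkm (chr9:59656368-59679375, plus strand), which encodes the pyruvate kinases M1 and M2 by alternative splicing, had 795 FPKM in OTD and 1292 in YTD, against 327 in OAD and 312 in YAD. In both genes YTD was highest, OTD second, and the anagen libraries lay within 1.05-fold of each other. The deposited values are per gene, so M1 and M2 cannot be told apart. Pgk1, Ldha and Gapdh have many processed pseudogenes in the mouse genome, and how reads shared with such copies were counted is not given in the sources used here, so these values are uncertain to that extent.

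Ldha (chr7:46841475-46855627, plus strand), the subunit that dominates in fast muscle, was the highest of the 10 genes in each library. It had 1447 FPKM in OTD and 2733 in YTD, against 486 in OAD and 441 in YAD. Ldhb (chr6:142490249-142507957, minus strand), the subunit of heart and other oxidative tissues, had 128 FPKM in OTD and 137 in YTD, against 35.5 in OAD and 28.0 in YAD. Unlike Pfkl and Pfkp, this second isozyme moved with the first between phases. The Ldhb share of the pair was 8.14% in OTD (Wilson interval 7.86% to 8.43%) and 4.77% in YTD (4.6% to 4.94%), against 6.81% in OAD (6.4% to 7.25%) and 5.97% in YAD (5.55% to 6.42%). OTD was highest and YTD lowest, with the anagen libraries between them.

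Slc16a1 (chr3:104638668-104658462, plus strand), which encodes the lactate transporter MCT1, had 11.7 FPKM in OTD and 15.7 in YTD, against 3.17 in OAD and 3.19 in YAD. It was among the lowest of the 10 genes, and the anagen libraries held it at the same level within counting error. Its counting interval for old against young in anagen, on the log2 ratio without a pseudocount, ran from -0.41 to 0.38, based on roughly 114 fragments in OAD and 107 in YAD. In these libraries it had the fewest fragments of the 10 genes, whereas in the telogen libraries Pfkp had the fewest, roughly 328 in OTD and 213 in YTD.

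**Figure D2:**
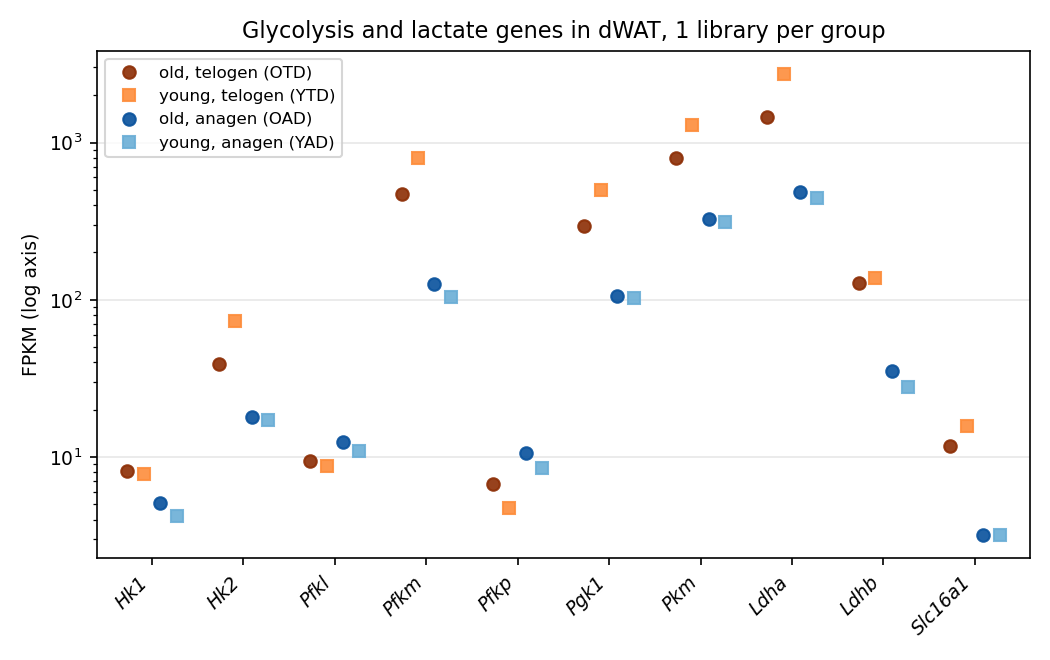
FPKM (vertical log axis) of the 10 genes in the libraries OTD, YTD, OAD and YAD, 1 point per library and no replicates. The telogen points lie above the anagen points for 8 genes and below them for Pfkl and Pfkp.

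The order of levels was stable at the top. Ldha, Pkm, Pfkm, Pgk1, Ldhb and Hk2 ranked 1 to 6 in each library. Pfkm and Pgk1, ranked 3 and 4, were clearly apart in YTD at 794 and 502 FPKM but nearly level in YAD at 105 and 102 FPKM. The last 4 places changed with phase, since Slc16a1 ranked 7 in both telogen libraries and 10 in both anagen libraries. As a share of all FPKM, the 10 genes together made up 0.257% in OTD and 0.447% in YTD, against 0.139% in OAD and 0.149% in YAD.

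Anagen was set against telogen at each age to see which of these genes moved with the hair cycle. In young dWAT 7 of the 10 genes were lower by at least 1 in anagen and 0 were higher, and the same was found in old dWAT. The 7 genes were Hk2, Pfkm, Pgk1, Pkm, Ldha, Ldhb and Slc16a1 at both ages. Over all genes above 0, 16.7% were lower and 16.1% higher by this rule in young dWAT, and 15.6% were lower and 16.1% higher in old dWAT. The median difference of the 10 genes was -2.04 in young and -1.38 in old dWAT, beside 0.02 and 0.01 over all genes. The largest differences were those of Pfkm, -2.91 in young and -1.90 in old dWAT, and in young dWAT Ldha followed at -2.63. Hk1 was lower by less than 1, with -0.75 in young and -0.59 in old dWAT. Pfkl was higher by 0.29 and 0.38, and Pfkp by 0.74 and 0.59, in young and old dWAT. Under TPM (FPKM rescaled to a fixed sum) 7 genes were lower and 2 higher by at least 1 in young dWAT, and 3 lower and 1 higher in old dWAT. Under that and 5 other settings of pseudocount, filter and scaling the 10 genes kept these directions at both ages. When the libraries were scaled to an equal sum of skeletal muscle markers, however, all 10 genes were higher in anagen at both ages. The 7 lower genes and Hk1 thus turned.

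Both telogen libraries were above both anagen libraries for 8 of the 10 genes, beside 37.2% of all genes above 0. Both were below for 2, Pfkl and Pfkp, beside 39.4% of all genes. The young and old comparisons between phases share no library, but each shares its libraries with the comparisons between ages.

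**Figure D3:**
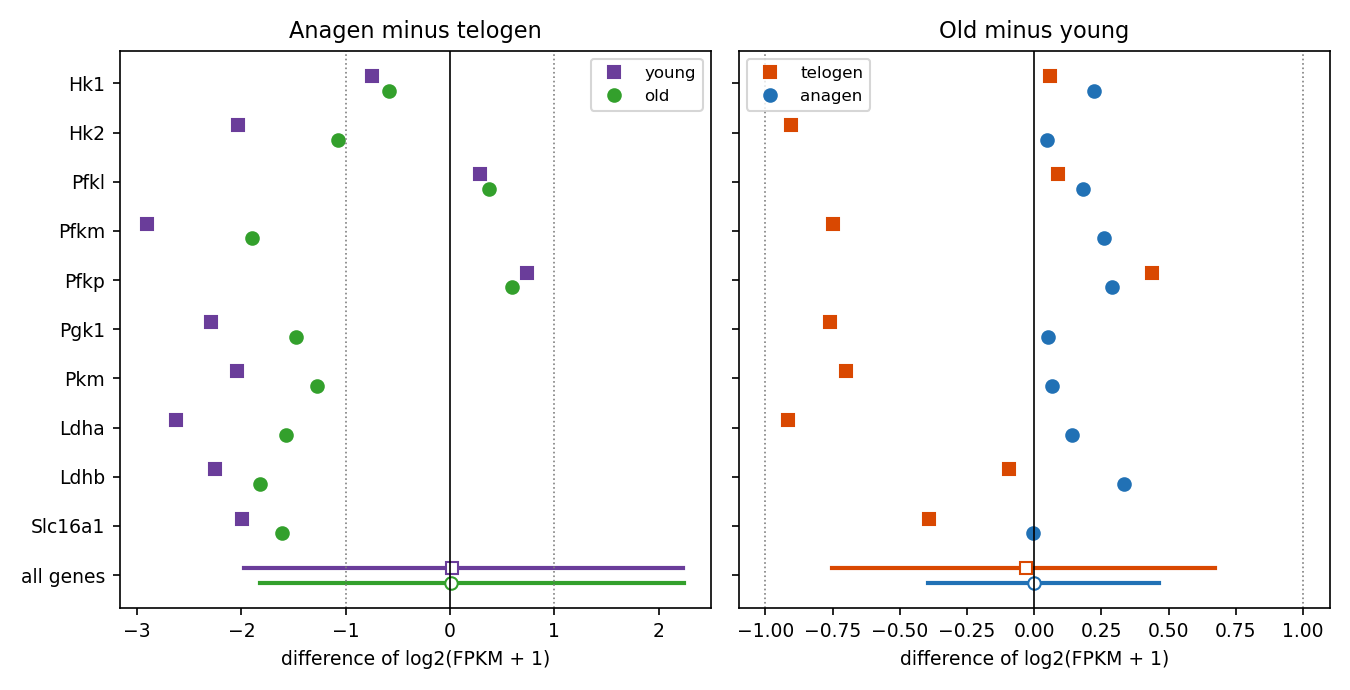
Difference of log2(FPKM + 1) for the 10 genes, anagen minus telogen at each age (left panel) and old minus young in each phase (right panel), with dotted lines at -1 and 1. The bottom row shows the median (open symbol) and the 5th to 95th percentile (bar) of all genes above 0 in a compared library, and 7 genes lie below -1 at both ages on the left while none passes 1 in size on the right.

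Old and young dWAT were compared within telogen to see whether the pathway moved with age. None of the 10 genes differed by at least 1 in OTD against YTD. Over all genes 1.67% were higher and 1.93% lower by this rule. Below that size 7 of the 10 were lower in OTD and 3 higher, with a median of -0.55 beside -0.03 over all genes. Ldha (-0.92) and Hk2 (-0.91) were lowest, which is 1.89-fold and 1.90-fold in FPKM, followed by Pgk1 (-0.76), Pfkm (-0.75), Pkm (-0.70) and Slc16a1 (-0.39). Ldhb was within 1.07-fold at -0.09, and its sign turned when mitochondrially encoded genes were left out of the scaling. Pfkp was 0.44 higher in OTD, whereas Hk1 and Pfkl differed by 0.06 and 0.09, within their counting intervals. When the libraries were scaled to an equal sum of adipocyte markers, 4 of the 10 genes were lower by at least 1 in OTD. That scaling shifted the median of all expressed genes by -0.17.

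In anagen none of the 10 genes differed by at least 1 between ages, where 0.727% of all genes were higher and 0.454% lower in OAD. The differences of the 10 genes ran from -0.00 for Slc16a1 to 0.33 for Ldhb, with 9 higher in OAD, and the median was 0.16. This split depends on scaling. The median of all expressed genes shifted by -0.20 under TPM, and the signs of Hk2, Pgk1, Pkm and Ldha then turned, as they did in both scalings without mitochondrially encoded genes, and that of Pfkl turned under TPM. Hk1 (0.22), Pfkm (0.26), Pfkp (0.29) and Ldhb (0.33) stayed higher in OAD under each of 6 settings of pseudocount, filter and scaling. At an equal sum of skeletal muscle markers, however, Pfkm and Pfkp were -0.12 and -0.06. At that scaling, and at an equal sum of adipocyte markers, all 10 genes were lower in OAD, with medians of -0.21 and -0.32.

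Skeletal muscle markers moved with these genes. Mouse skin carries a thin muscle, the panniculus carnosus, below the dWAT, which the study describes as removed during microdissection. The 22 markers of skeletal muscle, mostly genes of contraction and calcium handling, were nevertheless all above 0 in each library. Where their RNA came from was not tested. Their summed FPKM was 77769 in OTD and 123289 in YTD, against 17856 in OAD and 13725 in YAD, led by Acta1, the skeletal actin. The sum was 8.98-fold higher in telogen than in anagen of young dWAT and 4.36-fold in old dWAT, 1.59-fold higher in YTD than in OTD and 1.30-fold higher in OAD than in YAD. Between ages in anagen the single markers were mixed, with 15 of the 22 higher and 7 lower in OAD. From high to low this sum ran YTD, OTD, OAD and YAD, which is also the order of Pfkm, Ldha, Pkm, Pgk1, Hk2 and Ldhb. In bulk tissue, fewer cells of a type and less RNA per cell cannot be told apart.

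Each gene was therefore also given per 1000 FPKM of the muscle marker sum of its own library, a measure chosen after the values were seen. Pfkm was then 6.07 in OTD and 6.44 in YTD, against 7.04 in OAD and 7.64 in YAD, so that its highest value was 1.26 times its lowest, against 7.57 times in FPKM. Ldha was 18.6 in OTD and 22.2 in YTD, against 27.2 in OAD and 32.1 in YAD, a range of 1.73 times against 6.20 times. Pgk1 (1.95 times), Pkm (2.23), Hk2 (2.52), Ldhb (1.84) and Slc16a1 (1.82) also had a narrower range per muscle marker than in FPKM. For Hk1, Pfkl and Pfkp the reverse held. Their highest value per muscle marker was 4.87, 11.2 and 16.3 times the lowest, and their range in FPKM was 1.93, 1.43 and 2.26 times. The same measure over the other muscle type enzymes gave 1.21 times for Eno3, 1.16 for Pygm, 1.45 for Pgam2 and 1.496 for Aldoa. Dividing by a sum far higher in telogen tends to narrow any gene clearly higher in telogen, whatever its tissue, and to widen the others. The adipocyte marker sum, for one, was also higher in telogen, 3.42-fold in young and 2.91-fold in old dWAT. A narrower range therefore cannot tell muscle RNA from other RNA that was higher in telogen.

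**Figure D4:**
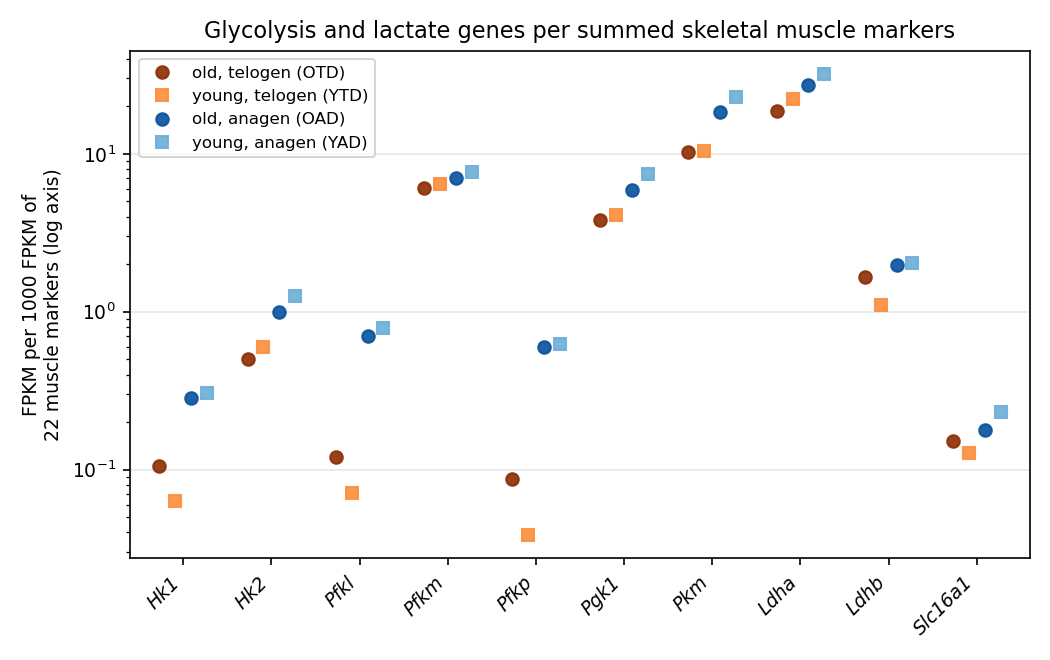
FPKM of the 10 genes per 1000 FPKM of the summed 22 skeletal muscle markers of the same library (vertical log axis), 1 point per library. The 4 points of Pfkm lie within 1.26-fold, whereas those of Pfkl and Pfkp spread over 11.2-fold and 16.3-fold with both anagen libraries at the top.

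When libraries were scaled to an equal muscle marker sum, Pfkm differed between anagen and telogen by 0.25 in young and 0.21 in old dWAT, and Ldha by 0.53 and 0.55, all towards anagen. In telogen OTD then differed from YTD by -0.09 for Pfkm, -0.10 for Pgk1, -0.04 for Pkm and -0.25 for Ldha. This scaling shifts the median of all expressed genes by 2.71 in young and 1.87 in old dWAT between phases. Relative to all genes the median of the 10 was -1.77 and -1.18, beside -2.052 and -1.425 as deposited. A scaling moves all genes by nearly the same amount, so this relative value could hardly change and tells nothing about the scaling.

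The other tissue lists were described likewise, and their part in the results was not tested. The 14 adipocyte markers were all above 0 in each library, as the label dWAT requires, and summed to 8451 FPKM in OTD and 7040 in YTD, against 2901 in OAD and 2057 in YAD. With an equal adipocyte sum, 1 of the 10 genes (Pfkm, -1.14) stayed lower in anagen by at least 1 in young dWAT and 0 in old dWAT, while Pfkl and Pfkp were higher by at least 1 at both ages. Of the 12 hair matrix and shaft markers 11 are in the table, and none was at 0. They summed to 35.0 FPKM in OTD and 105 in YTD, against 11423 in OAD and 11877 in YAD. The 10 proliferation markers summed to 50.05, 49.7, 244 and 292 FPKM in the same order. Markers of epidermis (10 of 11 in the table, 1 of them at 0 in YTD) were higher in anagen, at 60.6 and 91.9 FPKM in the telogen and 1538 and 1076 FPKM in the anagen libraries. Telogen sums were higher at both ages for macrophage markers (751 and 443 FPKM in OTD and YTD, 90.6 and 113 in OAD and YAD), endothelium (311 and 190, 72.2 and 57.3) and red blood cells (749 and 602, 367 and 226), with none of these markers at 0. Mitochondrially encoded genes accounted for 52.7% of all FPKM in OTD and 44.7% in YTD, against 18.3% in OAD and 14.4% in YAD, and depth was roughly 19200000 to 24300000 fragments.

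Muscle type isozymes were set beside the other isozymes of the same steps. The muscle type list held Hk2, Pfkm, Aldoa, Pgam2, Eno3, Ldha and Pygm, of which Aldoa also serves many other tissues. All 7 were lower in anagen by at least 1 at both ages, with a median of -2.91 in young and -1.85 in old dWAT, and this direction turned for 5 of them in young and 6 in old dWAT at an equal muscle marker sum. Their summed FPKM was 14867 in OTD and 23660 in YTD, against 4345 in OAD and 3320 in YAD. Of the 9 other isozymes 2 were higher by at least 1 in anagen at both ages (Aldoc and Pgam1) and 1 lower (Ldhb), with a median of 0.29 and 0.15. Their summed FPKM was 335 in OTD and 339 in YTD, against 340 in OAD and 340 in YAD, a range far below that of the muscle type list. This level sum hides opposite moves of single genes, since 6 of the 9 were higher and 3 lower in anagen at each age. Their differences ran from -2.25 to 2.24 in young and from -1.82 to 2.50 in old dWAT, with Ldhb lowest and Aldoc highest.

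Enolase and phosphoglycerate mutase repeated the split seen for phosphofructokinase. Eno3, the muscle enolase, had 1868 FPKM in OTD and 3460 in YTD, against 414 in OAD and 363 in YAD, whereas Eno1, the enolase of most other cells, had 118, 119, 131 and 142. The Eno3 to Eno1 ratio thus went from 29.1 in YTD to 2.55 in YAD. Pgam2, the muscle mutase, had 1015 FPKM in OTD and 2337 in YTD, against 282 in OAD and 203 in YAD, and Pgam1 had 39.6, 40.5, 114 and 115. Pgam2 exceeded Pgam1 57.7-fold in YTD and 1.76-fold in YAD. Glycogen phosphorylase behaved alike, with a Pygm to Pygl ratio of 93.3 in OTD and 149 in YTD, against 23.9 in OAD and 20.6 in YAD. Ldha to Ldhb was the exception among these pairs, at 11.3 in OTD and 19.98 in YTD, against 13.7 in OAD and 15.8 in YAD.

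**Figure D5:**
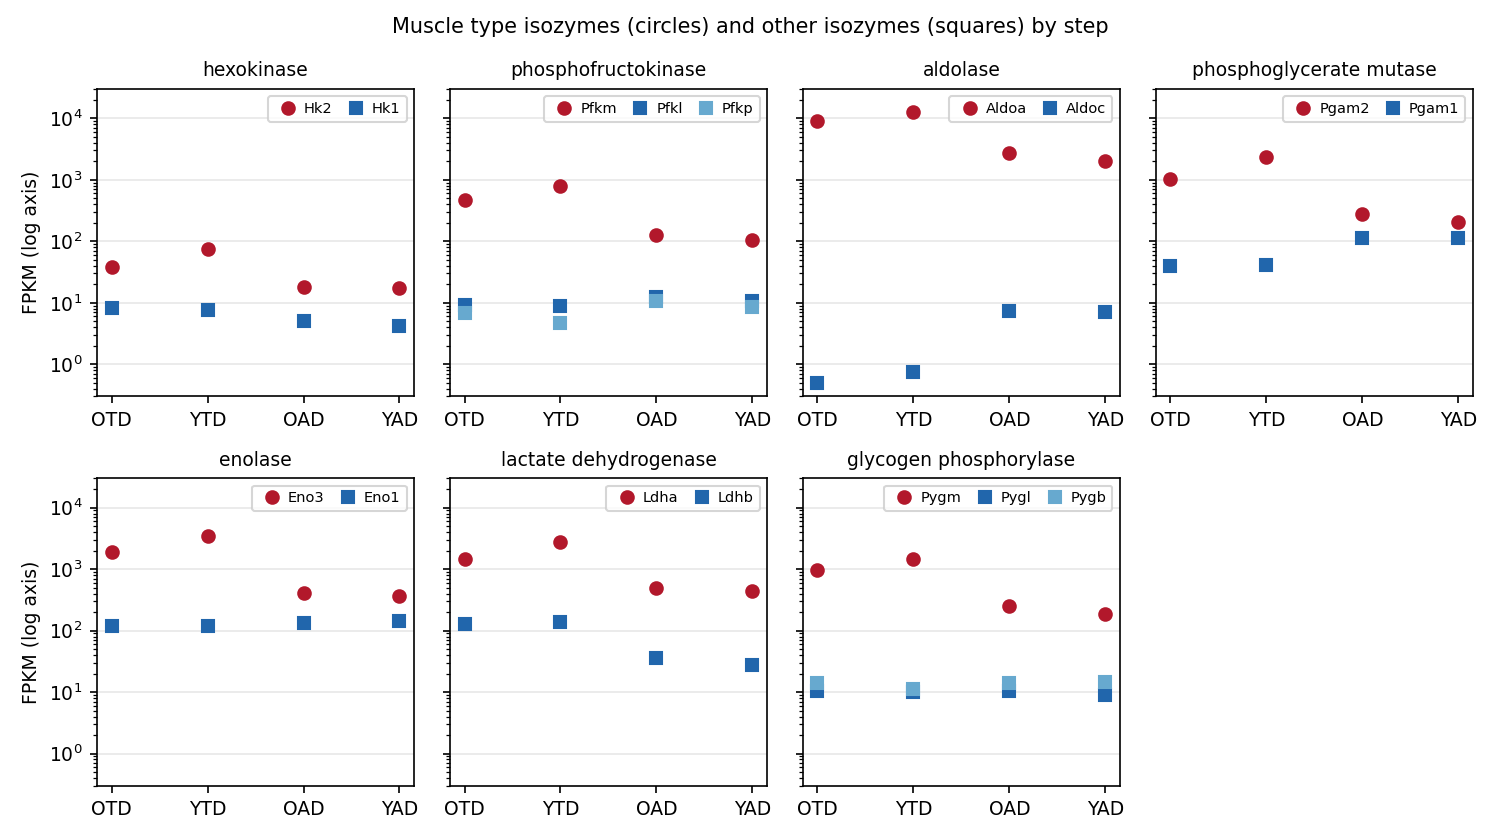
FPKM (vertical log axis) of muscle type isozymes (circles) and other isozymes (squares) at 7 steps in the libraries OTD, YTD, OAD and YAD, 1 point per library. The circles are lower in the anagen libraries at each step, whereas of the squares Hk1 and Ldhb are lower there and Eno1, Pygl and Pygb stay nearly level.

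The wider pathway was followed with 54 further genes, of which 51 were above 0 in at least 1 library. In anagen against telogen 26 were lower by at least 1 in young and 24 in old dWAT, of 49 and 50 genes above 0 in a compared library, with medians of -1.21 and -0.89. The shares lower over all genes were 16.7% and 15.6%. At each age 7 were higher, which as a share is no more than the 16.1% of all genes that were higher. Both telogen libraries were above both anagen libraries for 31 and below for 11 of these 51 genes, beside 37.2% and 39.4% of all genes. Aldoa had the highest FPKM of the list, 9046 in OTD and 12787 in YTD, against 2771 in OAD and 2006 in YAD. Tpi1 and Gapdh, which act between aldolase and Pgk1, differed by -2.76 and -2.68 in young dWAT and by -1.68 and -1.81 in old dWAT, and Gpi1 by -1.75 and -1.20.

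Of the genes for glucose uptake and for pyruvate use in mitochondria, some were lower in anagen and some were not. Slc2a4, the insulin-responsive glucose transporter of muscle and fat, had 151 FPKM in OTD and 208 in YTD, against 38.0 in OAD and 29.6 in YAD. Slc2a1, the basal transporter, had 8.15 to 13.7 FPKM and differed between phases by -0.11 in young dWAT, within its counting interval, and by -0.60 in old dWAT. The mitochondrial pyruvate carrier genes Mpc1 and Mpc2 differed by -2.10 and -2.02 in young and by -1.52 and -1.43 in old dWAT. Pdk2 and Pdk4, kinases that switch off pyruvate dehydrogenase, differed between phases by -3 and -2.40 in young dWAT, and their relative Pdk3 by 2.34.

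The lactate transporters parted. Slc16a3, which encodes MCT4, the exporter of glycolytic muscle, had 43.0 FPKM in OTD and 129 in YTD, against 14.2 in OAD and 16.7 in YAD. Its level was above that of Slc16a1 in each library. Slc16a7, which encodes MCT2, was higher in anagen, at 7.64 and 8.74 FPKM in OAD and YAD against 3.03 and 1.94 in OTD and YTD. Bsg, the chaperone of MCT1 and MCT4, had 331, 492, 284 and 265 FPKM in OTD, YTD, OAD and YAD and differed by less than 1 in each comparison.

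The 7 pathway genes higher in anagen at both ages, a count near the background given above, were Fbp1, Aldoc, Pgam1, Pfkfb2, Slc16a7, Pgm2 and Pdk3. Fbp1, the gluconeogenic fructose bisphosphatase best known from liver, stood out with 1.96 FPKM in OTD and 2.74 in YTD, against 92.5 in OAD and 115 in YAD. Its muscle relative Fbp2 ran the other way, at 46.0, 43.9, 9.30 and 5.40 FPKM in the same order. Aldoc was at 0.492 and 0.735 FPKM in telogen and 7.43 and 7.20 FPKM in anagen.

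With age, 1 of the 54 genes was higher and 3 were lower by at least 1 in telogen, where 1.67% and 1.93% of all genes were, and 0 differed so in anagen. These few calls depend on the setting, with 4 higher and 6 lower at a pseudocount of 0.1 and 3 higher and 1 lower without mitochondrially encoded genes in the scaling. Pdk4 was higher in OTD, with 204 FPKM against 97.6 in YTD. Pgam2 (-1.20), Slc16a3 (-1.56) and Gpd1 (-1.19), the glycerol 3-phosphate dehydrogenase that links glycolysis to triglyceride, were lower in OTD. Hif1a, the hypoxia factor, had 22.1 FPKM in OTD and 15.7 to 17.1 FPKM in the other libraries.

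The genes most like each of the 10 in pattern were found by the distance between profiles of log2(FPKM + 1), each centred on its own mean over the 4 libraries, among 6798 genes with at least 5 FPKM in each library. This likeness over 4 points is a description only. Pfkm was nearest to Phkb (distance 0.06), a phosphorylase kinase subunit, then Chchd10 and Nipsnap2. Ldha was nearest to Hrc (0.03), a calcium-binding protein of muscle sarcoplasmic reticulum, then Rhoq and Fam213b. Ldhb was nearest to Ghr (0.07), the growth hormone receptor, then Adig, an adipocyte gene, and Gstm1. Pgk1 was followed by Pacsin3, Coq9 and Cycs, Pkm by Oaz2, Klhdc2 and Rab3a, Hk2 by Tstd2, Ankrd40 and Uqcc1, and Slc16a1 by Btbd1, Vldlr and Sdhd. Those of Hk1 were Irf2, Chp1 and Tmcc3, those of Pfkl Sbno2, Tmub2 and Il17rc, and those of Pfkp Rpl36a, Slc31a2 and Rps28. The distance to Ckm, the muscle creatine kinase, was 0.25 for Pfkm, 0.57 for Ldha, 0.67 for Ldhb and 3.33 for Pfkp. Ldhb and Slc16a1 were nearer to Adipoq, the adipocyte hormone adiponectin, at 0.51 and 0.78, than to Ckm, as were Hk1, Pfkl and Pfkp at larger distances, whereas Pfkm, Ldha, Pgk1, Pkm and Hk2 were nearer to Ckm.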

How the data were processed

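RNA of dWAT was sequenced in 4 libraries, 1 each for OTD, YTD, OAD and YAD. The authors deposited FPKM for 22913 genes on GRCm38 with feature lengths. The submitters' processing notes name bcl2fastq and TopHat2, and their versions, the annotation and the counting tool are not given in the sources used here. Symbols were matched for 21750 of 22166 Ensembl genes. FPKM were used as deposited, and differences of log2(FPKM + 1) were taken with a threshold of 1. With 1 library per group no test was made. Depth was estimated from the value of 1 fragment in features of 2000 to 4000 bp, and shares carry 95% Wilson intervals. All 10 genes were named, with pathway genes past the threshold, the muscle type isozymes, the highest FPKM of a step and the 3 genes nearest in pattern. Single further pathway genes (Bsg, Hif1a, Slc2a1, Adpgk and some other isozymes) were named after their values were seen. Genes, lists and rules were chosen with earlier results of these data known. Alternatives were a pseudocount of 0.1, a filter of 1 FPKM, a threshold of 0.5 and 4 scalings, and equal muscle or adipocyte marker sums were added after the values were seen. Steps were tested on simulated data, with Python 3.11.15, numpy 2.4.6, pandas 2.3.3, scipy 1.17.1 and matplotlib 3.10.9.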

Additional observations from a re-analysis of the deposited data

Results flagged for a closer look

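For 6 of the 10 genes the difference between old and young had opposite signs in the phases, lower in OTD than YTD and higher in OAD than YAD. The telogen difference less the anagen difference, on the log2 scale, was -0.955 for Hk2, -1.01 for Pfkm, -0.811 for Pgk1, -0.767 for Pkm, -1.06 for Ldha and -0.425 for Ldhb. With 1 library per group this difference was not tested. The share of all genes with opposite signs in the phases is not given here, so 6 of 10 cannot be called unusual. The anagen signs of Hk2, Pgk1, Pkm and Ldha turned under TPM and under both scalings without mitochondrially encoded genes, and the telogen sign of Ldhb turned under those 2 scalings. The summed muscle markers were 1.59-fold higher in YTD than in OTD and 1.30-fold higher in OAD than in YAD, in the same direction as these genes. Of the 22 single markers 21 were lower and 1 higher in OTD than YTD. In anagen they were less uniform, with 15 higher and 7 lower in OAD, or 12 and 10 under TPM.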

How the results depend on the processing

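Without replicates no setting shows how far these values vary between mice, and depth limits Slc16a1 and Pfkp most among the 10 genes, which had the fewest fragments. Of 240 differences recomputed under 6 settings of pseudocount, filter and scaling, 156 moved by less than counting error, 84 moved further and 0 of those called changed direction. These counts overstate stability. The filter removed none of the 10 genes, so the differences under it could not move, and a pseudocount of 0.1 cannot turn a sign. Only the 4 scalings could turn a direction. Under TPM the genes higher by at least 1 in anagen numbered 2 in young and 1 in old dWAT, and those lower 3 in old dWAT. At a threshold of 0.5, 5 were lower in OTD than YTD and 1 was higher in anagen at each age. Computed on estimated fragments the Ldhb share was 7.58% in OTD and 4.43% in YTD, against 6.33% in OAD and 5.55% in YAD. Those scalings shifted the median of all expressed genes between phases by 0.71 and 0.52 (TPM, young and old), by 0.19 and -0.15 without mitochondrially encoded genes, and in old dWAT by -0.30 without these and muscle genes.

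Chosen after the values were seen, an equal muscle marker sum left 0 genes lower by at least 1 in anagen at either age and made 5 higher in young and 3 in old dWAT. All 10 genes were then higher in anagen at both ages, so Hk1 turned along with the 7 genes that had been lower by at least 1. The reversed differences of these 7, young then old, were 1.05 and 0.98 for Hk2, 0.25 and 0.21 for Pfkm, 0.86 and 0.63 for Pgk1, 1.12 and 0.84 for Pkm, 0.53 and 0.55 for Ldha, 0.87 and 0.27 for Ldhb, and 0.79 and 0.21 for Slc16a1. With an equal adipocyte sum 4 genes were lower by at least 1 in OTD than YTD, against 0 as deposited. Between phases 1 gene was then lower and 2 higher by at least 1 in anagen of young dWAT. In old dWAT 0 were lower and 2 higher, and Hk2 (0.41), Pgk1 (0.055) and Pkm (0.26) reversed. Hk1 also turned higher in anagen at that scaling, at both ages. The cause was not tested.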

Other observations

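Gapdh, the glycolytic enzyme between triose phosphate isomerase and Pgk1, was the reference transcript of the qPCR in the study. Its FPKM was 4948 in OTD and 7671 in YTD, against 1414 in OAD and 1196 in YAD. On the log2 scale this is -0.63 for OTD against YTD and 0.24 for OAD against YAD. The validation qPCR, which used other mice, also set old against young within a phase. Between phases Gapdh differed by more, -2.68 in young and -1.81 in old dWAT. Eno1 (118, 119, 131 and 142 FPKM in the same order) and Pygl (10.5, 9.91, 10.4 and 8.995 FPKM) spread over 1.21-fold and 1.17-fold.

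Ldhd, the mitochondrial enzyme for D-lactate, had 17.8 FPKM in OTD and 27.9 in YTD, against 4.11 in OAD and 4.08 in YAD. Tigar, a phosphatase that lowers fructose 2,6-bisphosphate, had 25.5, 40.8, 8.48 and 6.32 FPKM. The kinases that make this activator of phosphofructokinase parted, with Pfkfb3 at 24.3, 18.2, 7.45 and 7.27 FPKM and Pfkfb2 at 3.14, 4.28, 9.36 and 10.04 FPKM. Adpgk, an ADP-dependent glucokinase, was higher in anagen, at 14.7 and 17.3 FPKM in OAD and YAD against 7.80 and 8.23 in OTD and YTD.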
